A study of Mus musculus with 4 samples.

Results

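The Wnt pathway genes described here were the secreted ligands, their cell surface receptors and the proteins that raise or lower the signal, together with the TCF/LEF factors that carry it to DNA. They were taken by gene symbol, as rows of the expression table that begin with Wnt and a number, Fzd, Sfrp, Axin, Lef1, Tcf7 or Rspo, or that name Dkk1 to Dkk4, Lgr4 to Lgr6, Lrp5, Lrp6, Znrf3, Rnf43 or Wif1. *Fzd3* and *Fzd6* were left out. This gave 36 of the 12814 genes, of which 29 reached a signal of 100 in some library, as did 71.7% of all genes. In the reference gene names 53 symbols match, and the other 17 were not analysed here.

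RNA-seq was performed on cells sorted from the inner ear of *Atoh1/nGFP* mice at postnatal day 1, on a C57BL/6 background. Hair cells (HCs), which turn movement into an electrical signal, carried the green fluorescent protein and the epithelial surface protein CD326. Epithelial non-sensory cells (ENSCs) carried CD326 without the fluorescent protein. All 4 populations came from the same transgenic line and differed by cell type and organ: cochlear HCs and ENSCs, from the organ of hearing, and vestibular HCs and ENSCs, from the organ of balance. The fluorescent protein is driven by *Atoh1* regulatory sequence, so the sort divides cells by *Atoh1* activity, and ENSCs hold every CD326-positive cell without it, supporting cells among them. Each population had 1 library in the table. Values below therefore carry no replicate error, groups could not be tested against each other, and p-values are not given. In bulk libraries, fewer cells of a type and less RNA per cell cannot be told apart.

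Wnt ligands bind a Frizzled receptor (Fzd) together with the co-receptor Lrp5 or Lrp6. In the canonical branch this stops the destruction complex, in which Axin is the scaffold, from removing β-catenin, which then joins TCF/LEF factors at target genes. Other Wnts, of which Wnt5a is the best known, act through Frizzled on cell shape and polarity instead. Sfrp and Wif1 proteins bind Wnts outside the cell, and Dkk1 and Dkk2 act on Lrp5 and Lrp6. R-spondins (Rspo) bind Lgr4, Lgr5 or Lgr6 and take away the ligases Rnf43 and Znrf3, which otherwise remove Frizzled from the surface. In the newborn cochlea the pathway is best known for the Lgr5-positive supporting cells, which can divide and form HCs when Wnt signalling is raised.

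The values are quantile-normalized signals per gene with a floor of 20. They are not divided by gene length, so they are compared between libraries, and genes are compared with each other only as signal per kb of exon. Each column summed to 7830343 with a median of 120, so the read depth behind a value is unknown. Low signals that carry no order of their own ended at 24.25 in cochlear HCs, 22.75 in cochlear ENSCs, 30.5 in vestibular HCs and 20 in vestibular ENSCs. A signal at or below that point is called tied here, and a fold against it is a lower bound computed against the point itself. Of the 36 genes, 22 were above it in all 4 libraries. The sort was visible in known genes: all 10 listed HC markers were at least 3-fold higher in HCs of both organs, and *Epcam*, the gene of CD326, had 1016.75 in cochlear HCs, 3376.25 in cochlear ENSCs, 1139.25 in vestibular HCs and 7511 in vestibular ENSCs. Of the marker lists for cells outside the sort, mesenchyme had a summed signal over 8 of 10 listed genes of 1525.25 in cochlear HCs, 16376.25 in cochlear ENSCs, 410.5 in vestibular HCs and 2300.5 in vestibular ENSCs. The glial list was between 574.75 and 3680.75 over 5 of 6 genes and the neuronal list between 80 and 6703.75 over 4 of 6, highest in HCs. In vestibular HCs *Nefl* (2470), *Nefm* (2121.25) and *Snap25* (2090.5) made up nearly all of the neuronal sum. *Stmn2* went the other way, at 30.75 and 22 in cochlear and vestibular HCs and 81.5 in cochlear ENSCs, and *Tubb3* and *Neurod1* had no value. Endothelial, immune and dividing-cell lists had only 1, 1 and 2 of 4 listed genes with a value, and the melanocyte list none. The part of such cells in the results below was not tested. The supporting cell list, over 10 of 10 genes, summed to 16168.25 in cochlear HCs, 98992.5 in cochlear ENSCs (62028.5 of it *Epyc*), 13851.25 in vestibular HCs and 23518.5 in vestibular ENSCs (10905 of it *Otog*). Of its genes, 8 were lower and 2 higher in HCs of the cochlea, and 5 were lower and 4 higher in vestibular HCs, among the latter *Sox2* (log2 ratio 3.09).

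The promoters of 5 genes are shown because these genes carry the main patterns below: *Sfrp5* and *Wnt3*, which were high in vestibular ENSCs alone, *Dkk2*, which was highest in cochlear ENSCs, and *Axin2* and *Tcf7l2*, which were lower in HCs of both organs. Each is the RefSeq window (promoter table of GRCm38.p6) from 250 bases before to 50 bases after a transcription start, placed in mm9 by its single exact match there and written 5′ to 3′ on the strand of the gene. Capitals mark a match, on either strand, to the core that TCF/LEF factors bind, spelled CTTTG and then AA, AT, TA or TT.
Sfrp5, mm9 chr19:42276693-42276992, minus strand: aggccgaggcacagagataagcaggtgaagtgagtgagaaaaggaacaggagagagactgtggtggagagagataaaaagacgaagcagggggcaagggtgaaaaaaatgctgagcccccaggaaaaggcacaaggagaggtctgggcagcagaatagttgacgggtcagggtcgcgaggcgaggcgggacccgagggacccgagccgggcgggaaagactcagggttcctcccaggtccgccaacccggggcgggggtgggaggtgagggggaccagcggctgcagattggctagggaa
Wnt3, mm9 chr11:103635239-103635538, plus strand: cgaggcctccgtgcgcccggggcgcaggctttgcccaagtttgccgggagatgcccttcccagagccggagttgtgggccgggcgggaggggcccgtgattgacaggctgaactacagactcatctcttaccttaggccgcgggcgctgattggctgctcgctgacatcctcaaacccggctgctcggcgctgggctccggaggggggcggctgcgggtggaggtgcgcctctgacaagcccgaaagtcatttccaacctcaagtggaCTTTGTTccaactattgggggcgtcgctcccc
Dkk2, mm9 chr3:131748006-131748305, plus strand: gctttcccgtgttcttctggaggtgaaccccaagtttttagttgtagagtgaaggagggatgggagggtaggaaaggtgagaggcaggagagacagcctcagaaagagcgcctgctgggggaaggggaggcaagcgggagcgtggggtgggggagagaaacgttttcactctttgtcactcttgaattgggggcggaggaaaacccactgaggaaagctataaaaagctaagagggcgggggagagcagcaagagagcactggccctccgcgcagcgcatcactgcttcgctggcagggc
Axin2, mm9 chr11:108781413-108781712, plus strand: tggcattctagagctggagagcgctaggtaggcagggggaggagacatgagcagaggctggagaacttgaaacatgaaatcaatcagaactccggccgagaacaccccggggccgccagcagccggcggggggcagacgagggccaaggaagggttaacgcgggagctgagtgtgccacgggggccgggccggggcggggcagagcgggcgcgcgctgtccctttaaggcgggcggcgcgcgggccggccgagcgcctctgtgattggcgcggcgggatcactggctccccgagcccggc
Tcf7l2 (a start inside the gene), mm9 chr19:55969561-55969860, plus strand: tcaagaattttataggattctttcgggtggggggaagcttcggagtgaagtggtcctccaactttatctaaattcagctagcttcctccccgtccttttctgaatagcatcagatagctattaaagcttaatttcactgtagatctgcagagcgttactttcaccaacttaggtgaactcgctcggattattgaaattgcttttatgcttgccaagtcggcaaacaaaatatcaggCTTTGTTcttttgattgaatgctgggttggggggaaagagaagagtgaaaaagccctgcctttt
In *Wnt3* the match CTTTGTT began 18 bases after the start, and in *Tcf7l2* it began 14 bases before (position -14). The start of that *Tcf7l2* window lay 189 bases from the nearest annotated start, and the window at the first base of the gene, mm9 chr19:55816050-55816349, held no match. The windows of *Sfrp5*, *Dkk2* and *Axin2* held no match. A promoter was found for 23 of the 36 genes, and 4 of these (17.4%) held a match at 1 or more starts: *Fzd7*, *Lef1*, *Tcf7l2* and *Wnt3*. Of the 8607 genes of the table with such a window, 13.5% did. The *Lef1* match lay in a window whose start was 43497 bases from the nearest annotated start, and the other *Lef1* windows held none.

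The first question was how the pathway differed between HCs and the cells around them. Most of its genes had lower signals in HCs. In the cochlea HC signals were 3-fold or more below ENSC signals for 14 of the 36 genes (38.9%), and for none were they 3-fold above, where 9.2% of all genes were lower and 8.39% higher. In the vestibular system 16 (44.4%) were lower and 1 was higher, where 14.3% and 13.8% of all genes were. The log2 ratio of HC to ENSC signal had a median of -1.18 for cochlear and -1.45 for vestibular cells, against 0.00 and -0.0045 over all genes. Of the 14 and 16 lower genes, 3 and 9 had a tied signal in HCs.

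**Figure D1:**
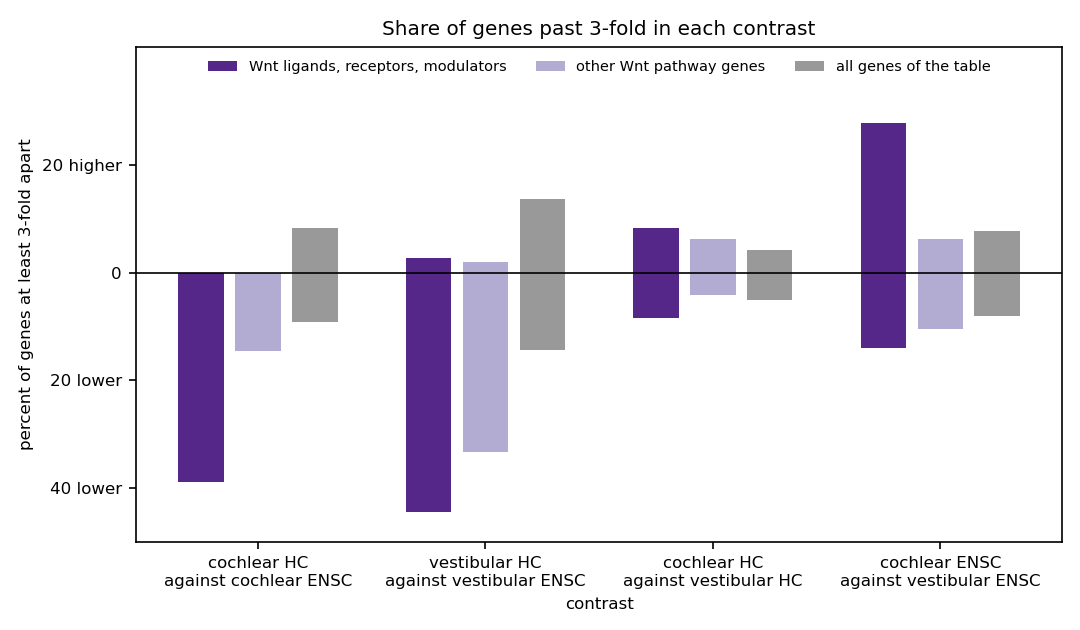
Percent of genes at least 3-fold higher (above 0) or lower (below 0) in each of the 4 contrasts, for the 36 Wnt ligands, receptors and modulators, for 48 other Wnt pathway genes and for all 12814 genes. In the HC against ENSC contrasts the bars of the 36 genes reach 38.9% and 44.4% lower, and in the ENSC contrast between organs 27.8% higher and 13.9% lower.

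Across the organs, 23 genes reached 3-fold lower signals in HCs of 1 or both, which 18.9% of all genes were. The 7 that were lower in both were *Axin2*, *Fzd2*, *Rspo2*, *Sfrp1*, *Tcf7l1*, *Tcf7l2* and *Wnt7b*, where 4.66% of all genes were lower in both. None of the 36 was 3-fold higher in both (4.99% of all genes). Without regard to size, 21 genes were lower and 3 were higher in HCs of both organs (31.9% and 32% of all genes). The 3 were *Fzd4*, *Lgr5* and *Lgr6*.

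**Figure D2:**
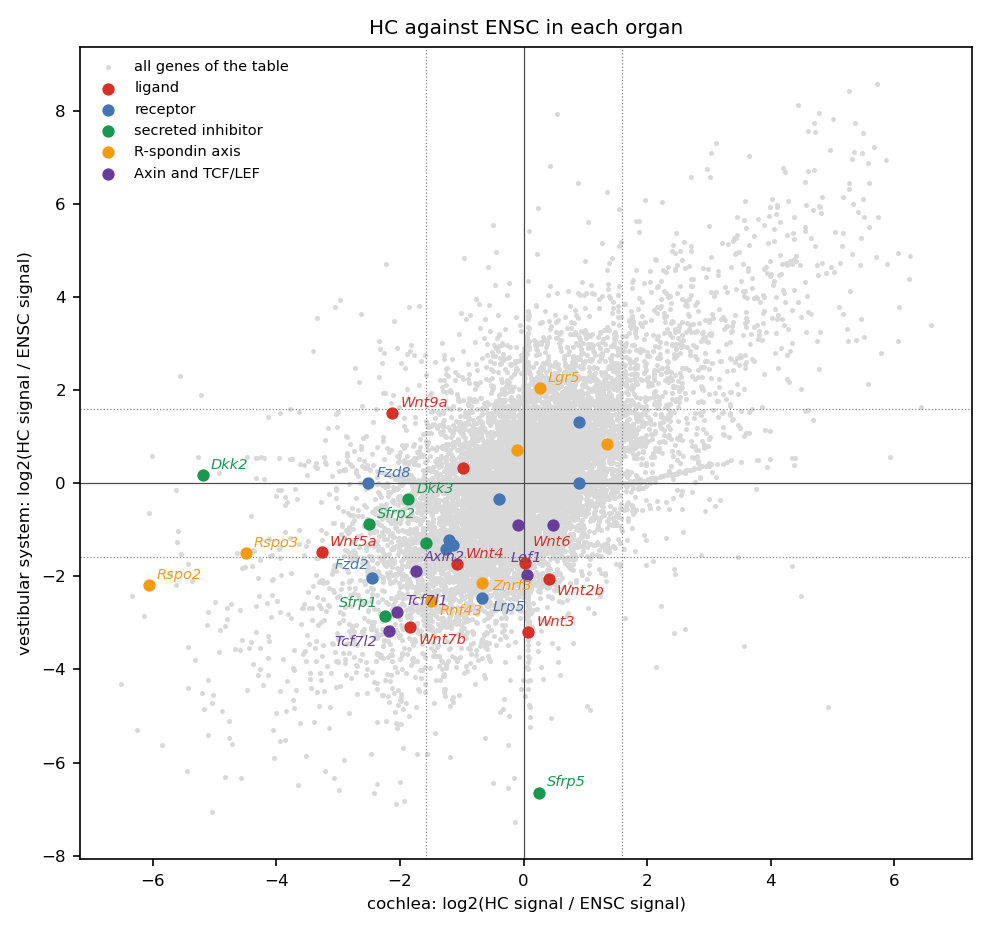
Log2 ratio of HC to ENSC signal in the cochlea (horizontal) and in the vestibular system (vertical), for all genes (grey) and the 36 Wnt pathway genes coloured by role, with dotted lines at 3-fold. Of the 36 genes, *Rspo2* lies furthest to the left (-6.07) and *Sfrp5* lowest (-6.65), and only *Lgr5* is above the upper dotted line.

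The vestibular ratios moved with base composition. Over 10358 genes above the floor in both libraries, the log2 ratio of vestibular HC to ENSC signal was lower for genes of higher GC content (Spearman's rho = -0.395, across genes, which are not replicates), and so was that of cochlear to vestibular ENSC signal (rho = -0.453 across 10475 genes). Neither the cochlear HC to ENSC ratio (rho = -0.04) nor the ratio of the HC libraries (rho = 0.0215) had a trend of this size. The Wnt pathway genes had a median GC content of 53.5%, against 48.8% over all genes, and a median exonic length of 3749 bases against 3819. Correction for the trends on length and GC moved 20 of the 36 vestibular HC to ENSC ratios and 15 of the 36 ratios between ENSCs by over 1.5 times, all upward, and none in the other 2 contrasts. Signals per kb were not corrected for GC content. After the correction the vestibular median was -0.86, with 11 genes lower and 2 higher, and the cochlear median was -1.19, with 14 lower. The shares of all genes past 3-fold after the correction are not given here, so these counts lack that comparison. *Rspo2*, *Sfrp1*, *Tcf7l2* and *Wnt7b* were still 3-fold lower in both organs after the correction, and *Rspo3* and *Wnt5a* joined them. *Axin2*, *Fzd2* and *Tcf7l1* kept the call in the cochlea alone.

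**Figure D3:**
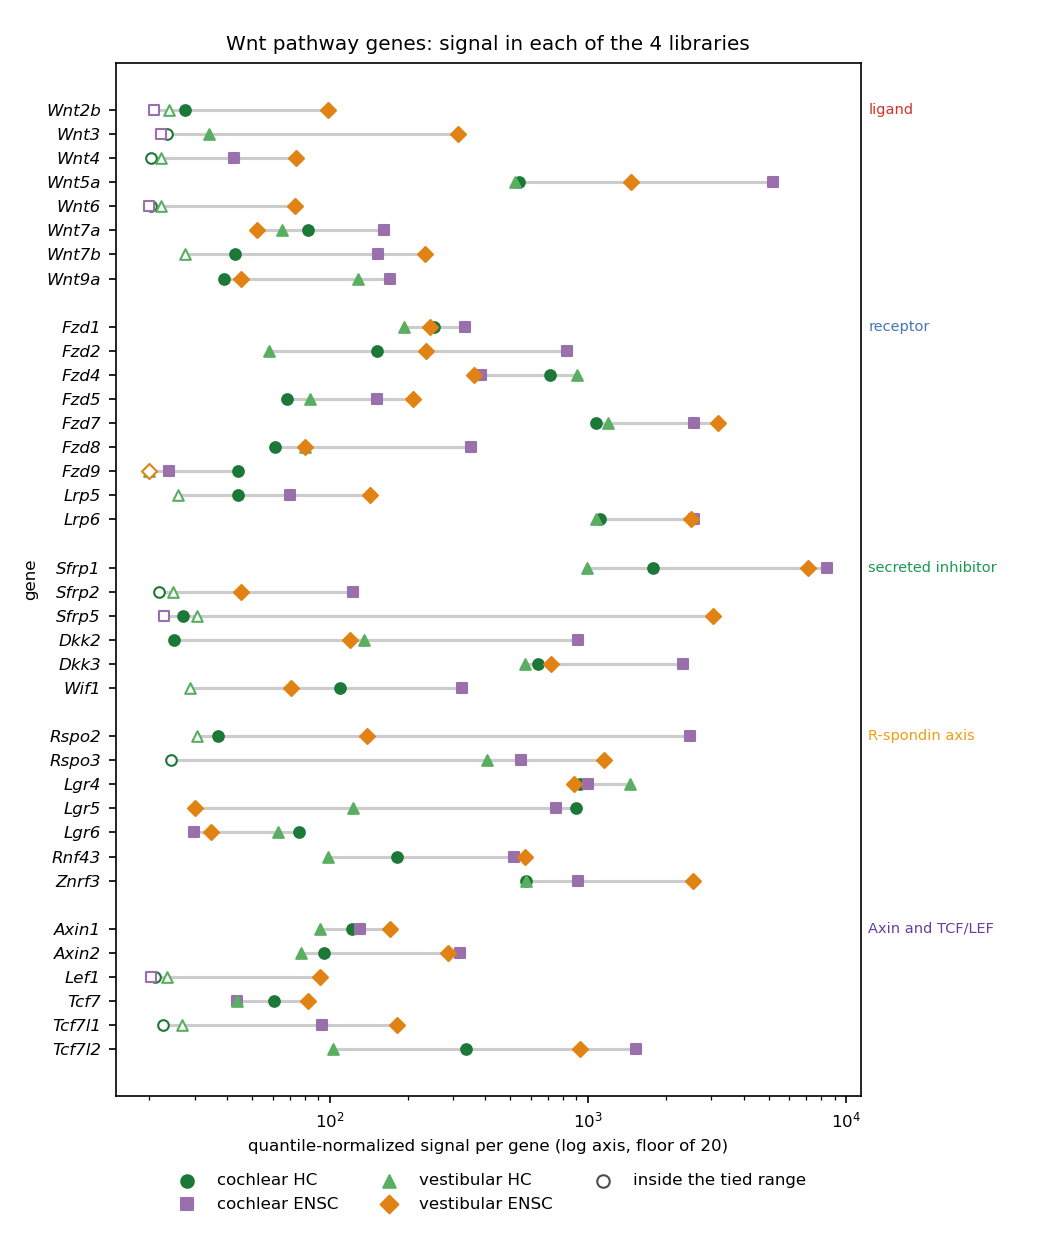
Signal of each of the 36 genes in the 4 libraries on a log axis, ordered by role, where open symbols mark a tied signal. The ENSC symbols (squares and diamonds) lie to the right of the HC symbols for 21 genes in both organs, and for *Sfrp5*, *Wnt3*, *Lef1* and *Wnt2b* the vestibular ENSC diamond stands alone.

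Among the 8 ligands, *Wnt5a* had the highest signal per kb in every library. *Wnt5a* (ENSMUSG00000021994, chromosome 14, 29317936 to 29340633 in mm9, plus strand) drives the polarity and elongation of the cochlear epithelium. Its signal was 541.25 in cochlear HCs, 5205 in cochlear ENSCs, 523.25 in vestibular HCs and 1465 in vestibular ENSCs. The HC libraries were nearly equal and cochlear ENSCs stood far above the rest. That was 9.62-fold lower in HCs than in ENSCs in the cochlea (log2 ratio -3.27) and 2.80-fold lower in the vestibular system (-1.49). Of the summed signal per kb of the 8 ligands, *Wnt5a* made up 79.6% in cochlear ENSCs, 47.2% in cochlear HCs, 41.4% in vestibular ENSCs and 40.3% in vestibular HCs.

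*Wnt3*, a ligand of the canonical branch, was high in vestibular ENSCs alone. Both cochlear signals were tied, 23.5 for HCs and 22.25 for ENSCs, with 34 in vestibular HCs and 313 in vestibular ENSCs. The signal of vestibular ENSCs exceeded that of vestibular HCs 9.21-fold, and that of cochlear ENSCs at least 13.8-fold. The first had a log2 ratio of -2.61 after length and GC correction, against -3.20 on deposited values. It supplied 22.5% of the ligand signal per kb in vestibular ENSCs. *Wnt2b*, with at most 27.5 in 3 libraries and 98.25 in vestibular ENSCs, and *Wnt6*, with at most 22.25 and then 73, were also highest in vestibular ENSCs, at much lower signals. *Wnt4* had 20.25 in cochlear HCs, 42.5 in cochlear ENSCs, 22.25 in vestibular HCs and 74 in vestibular ENSCs. All 3 passed 3-fold in the vestibular system on deposited values, but against the top of the tied range the folds were at least 3.22 for *Wnt2b*, 2.39 for *Wnt6* and 2.43 for *Wnt4*. After length and GC correction none of the 3 passed 3-fold, with log2 ratios of -1.30, -0.31 and -0.81.

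*Wnt7b* was the ligand at least 3-fold lower in HCs of both organs on deposited values, and the cochlear call was lost with a pseudocount of 20 (log2 ratio -1.47). Its signal was 43 in cochlear HCs against 154 in cochlear ENSCs, and 27.5 in vestibular HCs, which is tied, against 233.5 in vestibular ENSCs. The cochlear fold was 3.58 (log2 ratio -1.84) and the vestibular fold at least 7.66 (log2 ratio -3.09, and -1.73 after length and GC correction). Its close relative *Wnt7a* had 82 in cochlear HCs, 162.25 in cochlear ENSCs, 65.25 in vestibular HCs and 52 in vestibular ENSCs, so HCs were lower in the cochlea (log2 ratio -0.98) and higher in the vestibular system (0.33, and 1.26 after length and GC correction).

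*Wnt9a* went in opposite directions in the 2 organs. Cochlear HCs had 39 and cochlear ENSCs 170.5, whereas vestibular HCs had 128.25 and vestibular ENSCs 45.25. The HC to ENSC log2 ratio was thus -2.13 for cochlear and 1.503 for vestibular cells, the latter 2.51 after length and GC correction, and it was the only one of the 36 genes with at least 2-fold in opposite directions (1.69% of all genes). Between organs, cochlear HCs were 3.29-fold below vestibular HCs and cochlear ENSCs 3.77-fold above vestibular ENSCs.

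Of the 9 receptors and co-receptors, 2 (22.2%, against 9.2% of all genes) were 3-fold lower in cochlear HCs, *Fzd2* and *Fzd8*, and 2 (22.2%, against 14.3%) in vestibular HCs, *Fzd2* and *Lrp5*. The vestibular calls of both were lost after length and GC correction, *Fzd2* at a log2 ratio of -1.02. *Fzd7* had the highest signal per kb of the 7 Frizzled genes in every library, at 224 in cochlear HCs, 534 in cochlear ENSCs, 249 in vestibular HCs and 664 in vestibular ENSCs. Its deposited signals were 1074.25 and 2562.5 in cochlear HCs and ENSCs and 1193.75 and 3189.5 in vestibular HCs and ENSCs, which gave log2 ratios of -1.25 and -1.42, the vestibular one -0.65 after length and GC correction.

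*Fzd4*, which besides Wnts also binds norrin, was the Frizzled gene, of those analysed, that was higher in HCs of both organs. It had 714.5 in cochlear HCs, 384.75 in cochlear ENSCs, 906.5 in vestibular HCs and 362 in vestibular ENSCs, so both HC libraries lay above both ENSC libraries. The cochlear fold was 1.86 and the vestibular fold 2.50, under the 3-fold threshold. Set against *Fzd7* in the same library, the *Fzd4* signal per kb was 0.867 of it in cochlear HCs and 0.989 in vestibular HCs, but 0.196 in cochlear ENSCs and 0.148 in vestibular ENSCs. With *Fzd3* and *Fzd6* left out, *Fzd4* therefore supplied 34.3% of the Frizzled signal per kb in HCs of the cochlea and 41.0% in vestibular HCs. In the matching ENSCs it supplied 9.67% and 10.4%.

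*Fzd2* (ENSMUSG00000050288, chromosome 11, 102465745 to 102469372, plus strand) was a Frizzled gene of ENSCs. Cochlear HCs had 151.75 and cochlear ENSCs 827.25, 5.45-fold apart, while vestibular HCs had 58 and vestibular ENSCs 236.25, 4.07-fold apart. Cochlear ENSCs also exceeded vestibular ENSCs 3.50-fold. *Fzd8* had 351.5 in cochlear ENSCs and between 61.5 and 80 in the other libraries, and its 2 vestibular signals were equal at 80, a log2 ratio of 1.07 after length and GC correction. *Fzd5* had 68.5, 151.75, 84 and 209.5 in cochlear HCs, cochlear ENSCs, vestibular HCs and vestibular ENSCs, with log2 ratios of -1.15 and -1.32. *Fzd1* had 252.25, 333.25, 193.25 and 243.5 in the same order (log2 ratios -0.40 and -0.33), and after length and GC correction its vestibular ratio turned to 0.61. *Fzd9* had 44.25 in cochlear HCs, 23.75 in cochlear ENSCs and 20 in both vestibular libraries.

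Of the co-receptors, *Lrp6* had signals of 1109 (cochlear HCs), 2561.5 (cochlear ENSCs), 1073.75 (vestibular HCs) and 2495.75 (vestibular ENSCs). The organs gave almost the same log2 ratios, -1.21 and -1.22. *Lrp5* had 44, 70.25, 25.75 (tied) and 142.75 in cochlear HCs, cochlear ENSCs, vestibular HCs and vestibular ENSCs, with vestibular HCs at least 4.68-fold below the ENSCs, a call that was lost with a floor of 50 (log2 ratio -1.51) and after length and GC correction (-1.32). Per kb, *Lrp6* was 13.3, 19.2 and 9.21 times *Lrp5* in cochlear HCs, cochlear ENSCs and vestibular ENSCs. No ratio is given for vestibular HCs, where *Lrp5* was tied.

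**Figure D4:**
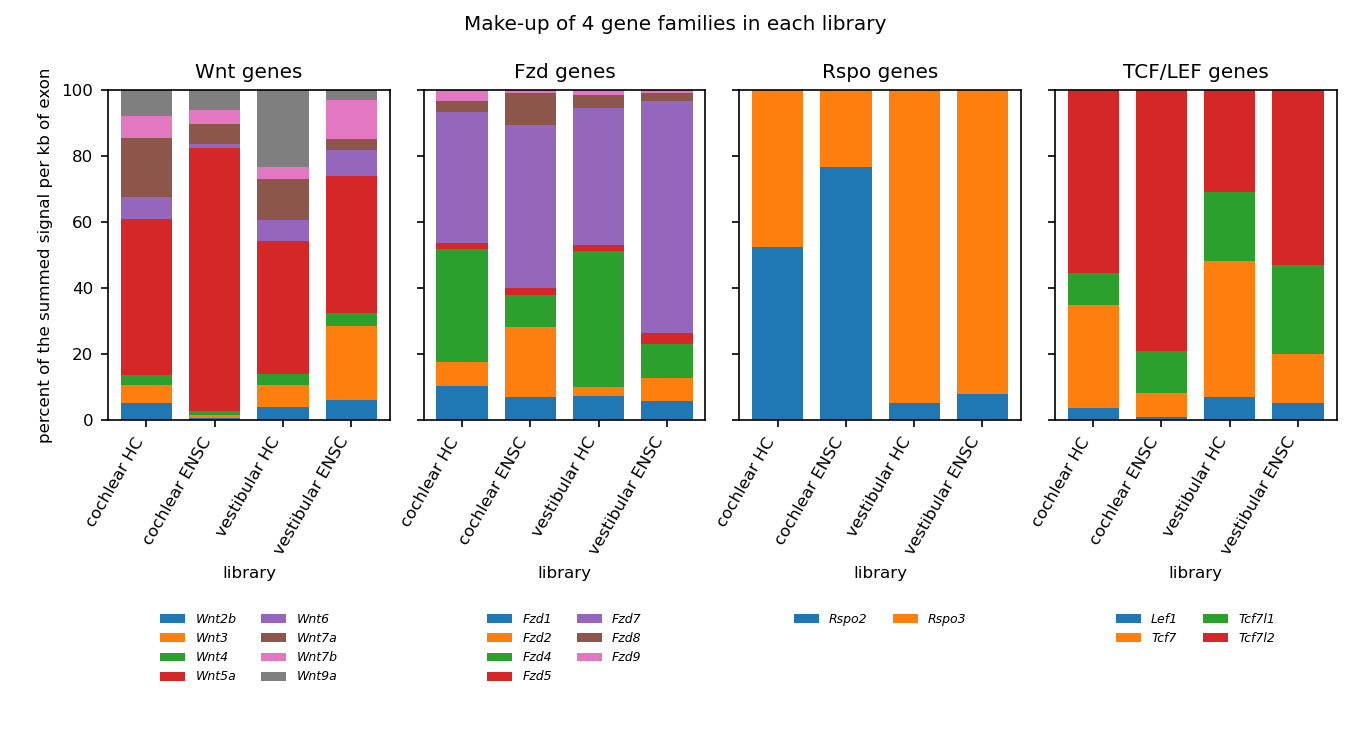
Percent of the summed signal per kb of exon that each gene makes up within the Wnt, Fzd, Rspo and TCF/LEF families in each library, where signals at the floor are included as deposited. *Fzd4* takes 34.3% (cochlea) and 41.0% (vestibular) of the Frizzled bar in HCs against 9.67% and 10.4% in ENSCs, and *Rspo2* takes 76.5% of the R-spondin bar in cochlear ENSCs against 8.03% in vestibular ENSCs.

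The secreted inhibitors held the largest single difference among the 36 genes, that of *Sfrp5*. *Sfrp1* (ENSMUSG00000031548, chromosome 8, 24521974 to 24560104, plus strand), whose product carries a Frizzled-like domain that binds Wnts, had 1776.25 in cochlear HCs, 8422 in cochlear ENSCs, 990.75 in vestibular HCs and 7107 in vestibular ENSCs. The HC signals were 4.74-fold and 7.17-fold lower (log2 ratios -2.25 and -2.84), and the ENSC libraries of the organs differed only 1.19-fold. Per kb, *Sfrp1* had the highest signal of all 36 genes in each library but vestibular HCs, where *Fzd7*, *Lgr4* and *Fzd4* were above it.

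*Sfrp5* (ENSMUSG00000018822, chromosome 19, 42272461 to 42276742, minus strand; promoter above) was high in vestibular ENSCs alone. It had 3054.5 there, 27 in cochlear HCs, and tied signals of 22.75 in cochlear ENSCs and 30.5 in vestibular HCs. On deposited values it was at least 100.1-fold higher in vestibular ENSCs than in vestibular HCs (log2 ratio of HCs to ENSCs -6.65), and the log2 ratio was -5.33 after length and GC correction and -5.93 with a floor of 50. Of the *Sfrp* signal per kb, *Sfrp1* made up 96.5% in cochlear ENSCs and 49.95% in vestibular ENSCs, without regard to the higher GC content of *Sfrp5* (60.3%, against 50.8% for *Sfrp1*). *Sfrp2* had 123.25 in cochlear ENSCs, 45.25 in vestibular ENSCs and tied signals of 21.75 and 24.75 in cochlear and vestibular HCs, at least 5.08-fold lower in HCs of the cochlea, a call that was lost with a floor of 50 (log2 ratio -1.30).

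*Dkk2* (ENSMUSG00000028031, chromosome 3, 131748256 to 131843257, plus strand; promoter above) had 25 in cochlear HCs, 914 in cochlear ENSCs, 135.25 in vestibular HCs and 119.5 in vestibular ENSCs. It was 36.6-fold lower in HCs of the cochlea (log2 ratio -5.19) and almost equal in the vestibular populations (0.18). The cochlear signal of 25 lies just above the tied range, and the cochlear log2 ratio was -4.19 with a floor of 50 and -4.38 with a pseudocount of 20. *Dkk3*, a divergent member of its family, had 640.25, 2339.5, 569.25 and 720.25 in cochlear HCs, cochlear ENSCs, vestibular HCs and vestibular ENSCs, a 3.65-fold difference in the cochlea and 1.27-fold in the vestibular system. *Wif1* had 109 and 324.5 in cochlear HCs and ENSCs and 28.75 (tied) and 70.5 in vestibular HCs and ENSCs. For all 3 genes cochlear ENSCs had the highest signal.

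Both R-spondin genes differed widely between HCs and ENSCs of the cochlea. *Rspo2* (ENSMUSG00000051920, chromosome 15, 42852357 to 43002364, minus strand) had 2481 in cochlear ENSCs, 37 in cochlear HCs, 139.5 in vestibular ENSCs and a tied 30.5 in vestibular HCs. It was 67.1-fold lower in HCs of the cochlea (log2 ratio -6.07) and at least 4.57-fold lower in those of the vestibular system, where the call was lost with a floor of 50 (-1.48). *Rspo3* (ENSMUSG00000019880, chromosome 10, 29172915 to 29255673, minus strand) had a tied 24.25 in cochlear HCs, 548.25 in cochlear ENSCs, 406.25 in vestibular HCs and 1151.5 in vestibular ENSCs. HCs were at least 22.6-fold lower in the cochlea but 2.83-fold lower in the vestibular system. With a pseudocount of 20 the cochlear log2 ratios were -5.46 for *Rspo2* and -3.68 for *Rspo3*. Within a library the order of the 2 genes changed with the organ: per kb, *Rspo2* was 3.26 times *Rspo3* in cochlear ENSCs and 0.0873 of it in vestibular ENSCs.

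The R-spondin receptors did not share the lower signals in HCs. *Lgr4* had 926.75 in cochlear HCs, 1000.25 in cochlear ENSCs, 1456.75 in vestibular HCs and 883.25 in vestibular ENSCs, with log2 ratios of -0.11 and 0.72. *Lgr5* (ENSMUSG00000020140, chromosome 10, 114887367 to 115024836, minus strand), known in the newborn cochlea as a supporting cell gene, had 897.75 in HCs of the cochlea against 748.5 in its ENSCs, so the cochlear populations were within 1.20-fold of each other. In the vestibular system it had 123.25 in HCs and 30 in ENSCs, 4.11-fold apart (log2 ratio 2.04). On deposited values it was the only one of the 36 genes 3-fold higher in HCs. That call was lost with a floor of 50 (1.30), a pseudocount of 20 (1.52) and after length and GC correction (1.51), and after the last of these *Wnt9a* (2.51) and *Lgr6* (1.98) were 3-fold higher in vestibular HCs instead. *Lgr6* had 75.75 and 29.75 in cochlear HCs and ENSCs and 62.75 and 34.75 in vestibular HCs and ENSCs, higher in HCs of both organs but under 3-fold on deposited values (log2 ratios 1.35 and 0.85).

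The ligases that R-spondins remove from the membrane, both of them also targets of the pathway, were lower in HCs. *Znrf3* had 574.25 in both HC libraries, 916.25 in cochlear ENSCs and 2553 in vestibular ENSCs, 1.60-fold lower in HCs of the cochlea and 4.45-fold lower in those of the vestibular system. *Rnf43* had 182.5 and 516.5 in cochlear HCs and ENSCs and 98.75 and 569 in vestibular HCs and ENSCs (log2 ratios -1.50 and -2.53). The ENSC signals of *Rnf43* were close in the 2 organs, 1.10-fold apart.

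Inside the cell, *Axin2* (ENSMUSG00000000142, chromosome 11, 108781663 to 108812097, plus strand; promoter above), the general target and feedback inhibitor of the canonical branch, had 95 in cochlear HCs, 319 in cochlear ENSCs, 77 in vestibular HCs and 286.25 in vestibular ENSCs. Both HC libraries lay below both ENSC libraries, 3.36-fold in the cochlea and 3.72-fold in the vestibular system, and each cell population was within 1.24-fold between organs on deposited values. The cochlear call was lost with a pseudocount of 20 (log2 ratio -1.56) and the vestibular call after length and GC correction (-0.91), which also put cochlear ENSCs above vestibular ENSCs by 0.87 on the log2 scale. Its paralogue *Axin1*, which is not such a target, had 122.25, 130.25, 91.25 and 170.25 in cochlear HCs, cochlear ENSCs, vestibular HCs and vestibular ENSCs. Its log2 ratios were -0.09 and -0.90, and the vestibular ratio turned to 0.10 after length and GC correction.

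*Tcf7l2* (ENSMUSG00000024985, chromosome 19, 55816300 to 56008144, plus strand) had the highest signal per kb of the 4 TCF/LEF genes in 3 libraries. Its signal was 336 in cochlear HCs, 1527.25 in cochlear ENSCs, 102.75 in vestibular HCs and 928.25 in vestibular ENSCs. HCs were 4.55-fold lower in the cochlea (log2 ratio -2.18) and 9.03-fold lower in the vestibular system (-3.18). In vestibular HCs *Tcf7* was above it per kb, at 15.7 against 11.8. *Tcf7l1*, which acts mainly as a repressor, was tied in HCs of both organs, at 22.5 in cochlear and 26.75 in vestibular cells. The matching ENSCs had 93.5 and 181.25, at least 3.86-fold and 5.94-fold higher. The cochlear call of *Tcf7l1* was lost with a floor of 50 (log2 ratio -0.90) and a pseudocount of 20 (-1.42), and the vestibular call after length and GC correction (-1.54). *Tcf7* had 60.75, 43.5, 43.75 and 82 in cochlear HCs, cochlear ENSCs, vestibular HCs and vestibular ENSCs, within 3-fold in all contrasts. *Lef1* was tied in 3 libraries, with at most 23.5, and had 91.5 in vestibular ENSCs, where its call against vestibular HCs was lost with a floor of 50 (log2 ratio -0.87) and a pseudocount of 20 (-1.36).

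The pathway was then compared between organs within each cell population. Between the HC libraries, 3 genes (8.33%) were at least 3-fold higher and 3 (8.33%) lower in cochlear HCs, where 4.21% and 5.09% of all genes were. *Lgr5* was 7.28-fold, *Wif1* at least 3.57-fold and *Tcf7l2* 3.27-fold higher in cochlear HCs. *Rspo3* was at least 16.8-fold, *Dkk2* 5.41-fold and *Wnt9a* 3.29-fold higher in vestibular HCs. The log2 ratios of this contrast had a median of 0.11. None of the 9 receptors and co-receptors passed 3-fold in this contrast, where few of all genes did (4.21% higher and 5.09% lower).

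The ENSC libraries differed more. Cochlear ENSCs were at least 3-fold above vestibular ENSCs for 10 genes (27.8%, against 7.8% of all genes) and below them for 5 (13.9%, against 7.94%), with a median log2 ratio of 0.06. The 10 were *Lgr5* (24.95-fold, a log2 ratio of 4.64 that was 3.90 with a floor of 50), *Rspo2* (17.8-fold), *Dkk2* (7.65-fold), *Wif1* (4.60-fold), *Fzd8* (4.39-fold), *Wnt9a* (3.77-fold), *Wnt5a* (3.55-fold), *Fzd2* (3.50-fold), *Dkk3* (3.25-fold) and *Wnt7a* (3.12-fold). They thus held 3 of the 6 secreted inhibitors, 3 of the 8 ligands and 2 of the 9 receptors and co-receptors. The 5 were *Sfrp5* (at least 134-fold), *Wnt3* (at least 13.8-fold), *Wnt2b* (at least 4.32-fold), *Lef1* (at least 4.02-fold) and *Wnt6* (at least 3.21-fold), and each of the 5 was tied in cochlear ENSCs. With a pseudocount of 20 the calls of *Wnt9a* (log2 ratio 1.55), *Wnt7a* (1.34), *Wnt2b* (-1.54), *Lef1* (-1.47) and *Wnt6* (-1.22) were lost. A floor of 50 ended those of *Wnt2b* (-0.97), *Lef1* (-0.87) and *Wnt6* (-0.55). With that floor the log2 ratio of *Sfrp5* went from -7.07 to -5.93 and that of *Wnt3* from -3.81 to -2.65. After length and GC correction that of *Sfrp5* was -6.19.

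Other cell markers moved with this contrast. The mesenchyme list, given above, had its highest sum in cochlear ENSCs, where *Lum* alone had 12731.25. Of its 8 genes, 4 were higher in cochlear and 4 in vestibular ENSCs, and the collagen genes *Col1a1* (58.25 against 512.25) and *Col3a1* (46.25 against 547) went the other way from *Lum*. *Tbx18* and *Prrx1* stood at 20 in both cochlear libraries, and at 54.75 and 31.25 in vestibular ENSCs. Of the supporting cell list 9 of 10 genes were higher in cochlear ENSCs, *Gata3* (5323.5 against 75.5) and *Epyc* (62028.5 against 1119.25) most, and *Otog* (1432.75 against 10905) was lower. The keratins *Krt8* (96.5 against 1524) and *Krt18* (581 against 6188.75) and the glial *Sox10* (202.5 against 1183) were lower in cochlear ENSCs. In vestibular ENSCs *Kdr*, the only gene of the endothelial list with a value, had 1461.75, against at most 29.75 elsewhere. The dividing-cell genes *Mki67* and *Top2a* summed to 661.25 there, against 69 to 119.75 in the other libraries. *Kdr*, *Mki67* and *Top2a* were also higher in vestibular ENSCs than in vestibular HCs. The part of the marker genes in either contrast was not tested. After length and GC correction 11 genes were higher and 4 lower in cochlear ENSCs, with *Sfrp2* added to the first (log2 ratio 1.78) and *Wnt6* lost from the second (-0.96). For these counts too, the shares of all genes after the correction are not given here.

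**Figure D5:**
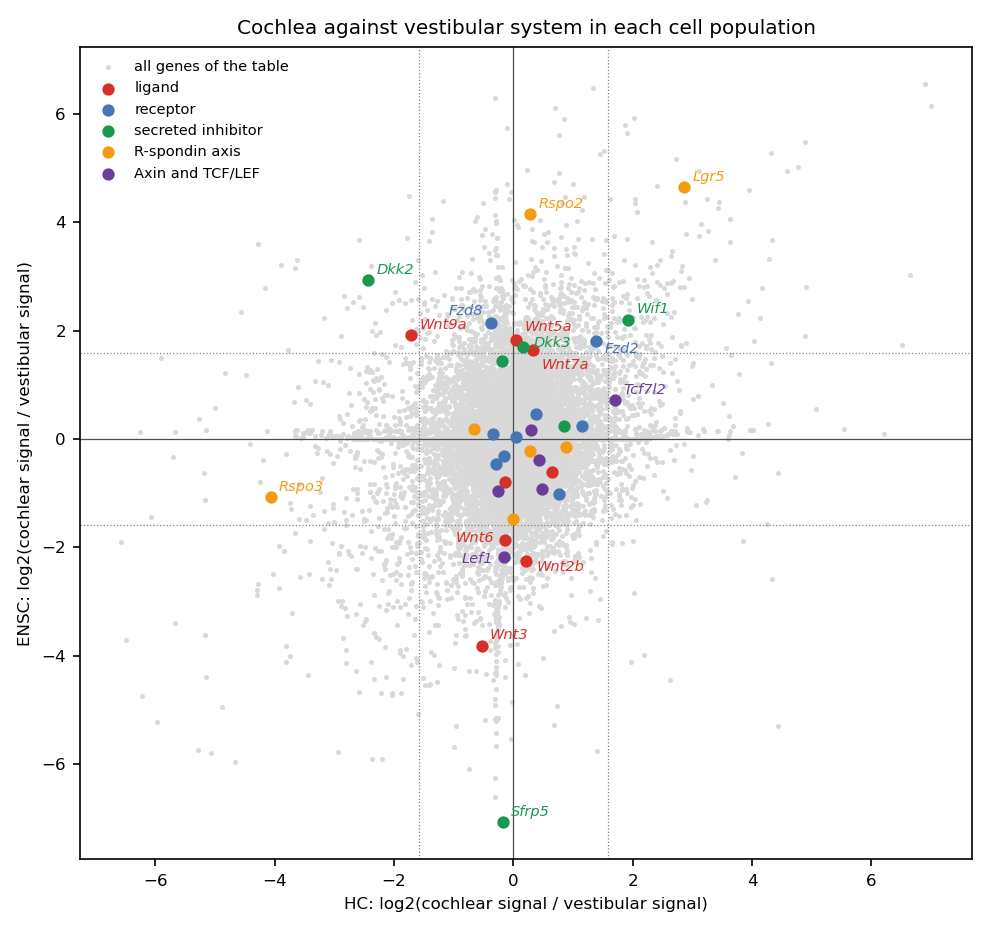
Log2 ratio of cochlear to vestibular signal in HCs (horizontal) and in ENSCs (vertical), for all genes (grey) and the 36 Wnt pathway genes coloured by role, with dotted lines at 3-fold. *Lgr5* (2.86 and 4.64) and *Wif1* are past 3-fold on both axes towards the cochlea, *Dkk2* (-2.44 and 2.94) and *Wnt9a* are past it in opposite directions, and *Sfrp5* lies at -7.07 on the vertical axis.

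Of the 36 genes, *Lgr5* and *Wif1* were past 3-fold in the same direction in both populations, higher in the cochlea. *Dkk2* and *Wnt9a* were past it in opposite directions, lower in cochlear than in vestibular HCs and higher in cochlear than in vestibular ENSCs. The shares of all genes past 3-fold in both of these contrasts are not given here. With a floor of 50 the HC calls of *Wif1* (log2 ratio 1.12), *Dkk2* (-1.44) and *Wnt9a* (-1.36) were lost, and with a pseudocount of 20 those of *Wif1* (1.40), *Wnt9a* (-1.33) and *Tcf7l2* (1.54) were. Counting all 4 contrasts, 26 of the 36 genes (72.2%) were at least 3-fold apart in 1 or more, as were 42.1% of all genes. The 10 that were not were *Axin1*, *Fzd1*, *Fzd4*, *Fzd5*, *Fzd7*, *Fzd9*, *Lgr4*, *Lgr6*, *Lrp6* and *Tcf7*, among them 5 of the 7 Frizzled genes. By library, the highest of the 4 signals was in vestibular ENSCs for 16 genes (44.4%, against 33.3% of all genes), in cochlear ENSCs for 15 (41.7%, against 21.3%), in cochlear HCs for 3 (8.33%, against 23.7%) and in vestibular HCs for 2 (5.56%, against 21.4%). The 5 genes highest in HCs were *Fzd4*, *Fzd9*, *Lgr4*, *Lgr5* and *Lgr6*, all of them receptors.

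A list of 53 further pathway genes, from secretion to the nucleus and with known targets, placed the 36 in context. Of these 48 had a value. In the cochlea 7 (14.6%, against 9.2% of all genes) had 3-fold or more lower signals in HCs, and none had higher ones (8.39% of all genes). In the vestibular system 16 (33.3%, against 14.3%) were lower and 1 (2.08%, against 13.8%) was higher. The median log2 ratios were -0.42 and -0.59. The values of these 48 genes are given without length and GC correction, here and below. *Wls*, which carries Wnts to the cell surface, had 577.5 in cochlear HCs, 2018.25 in cochlear ENSCs, 416.25 in vestibular HCs and 2791.5 in vestibular ENSCs, and *Ror1*, a receptor for Wnt5a, had 177, 549.25, 141 and 1075.5 in the same order. Both were lower in HCs of both organs, together with *Bcl9l*, *Gpc3*, *Sostdc1* and *Tnfrsf19*.

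Of 20 cytoplasmic genes 1 was 3-fold lower in cochlear HCs and 3 in vestibular HCs, no larger a share than among all genes in the cochlea and near it in the vestibular system (9.2% and 14.3%), and *Dact1* was 3-fold higher in vestibular HCs. *Ctnnb1*, which encodes β-catenin, had 3518.25 and 4381.5 in cochlear HCs and ENSCs and 3686 and 6644 in vestibular HCs and ENSCs (log2 ratios -0.32 and -0.85). *Gsk3b*, the kinase that marks β-catenin for removal, had 7214.5, 5597.5, 8780.25 and 6723.5 in cochlear HCs, cochlear ENSCs, vestibular HCs and vestibular ENSCs (0.37 and 0.39). Of 10 cell surface genes 3 were lower in cochlear HCs and 6 in vestibular HCs, and of 11 nuclear genes 1 and 3.

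Of the 13 listed targets with a value, 6 of which are among the 36 genes, 2 were at least 3-fold lower in cochlear HCs (*Axin2* and *Tnfrsf19*) and 8 in vestibular HCs, where 1, *Lgr5*, was higher. Over all genes 9.2% and 14.3% were lower. After length and GC correction the vestibular log2 ratio of *Axin2* was -0.91, under 3-fold, and its cochlear call was lost with a pseudocount of 20 (-1.56). The *Lgr5* call was lost with a floor of 50 (1.30), that pseudocount (1.52) and the correction (1.51). The vestibular *Lef1* call was lost with the floor (-0.87) and the pseudocount (-1.36). *Tnfrsf19* had 596 and 2052.75 in cochlear HCs and ENSCs and 129.75 and 1858.75 in vestibular HCs and ENSCs (log2 ratios -1.78 and -3.84). *Apcdd1* had at most 64.25 in 3 libraries and 1056 in vestibular ENSCs. *Ccnd1*, which drives the cell cycle, was within 3-fold in both organs, at 503.75, 776, 490.75 and 1109 in cochlear HCs, cochlear ENSCs, vestibular HCs and vestibular ENSCs.

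Overlapping annotation could touch 5 of the 36 genes, since the strand setting of the count is not given in the sources used here. The opposite-strand transcripts that share exonic bases covered 16.1% of *Sfrp2* exons (Gm16790), 5.39% of *Tcf7l1* (Gm15401), 4.58% of *Wnt5a* (Gm2670), 3.80% of *Axin2* (Gm11670) and 0.861% of *Wnt7b* (AU022754). Reads from these stretches cannot be assigned to one gene or the other.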

How the data were processed

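RNA-seq libraries of 4 sorted populations were used, 1 per group. Per the labels and methods, TopHat placed 50 nt from the start of every read on mm9, HTSeq counted reads by gene, and the authors quantile-normalized the resulting signal. Versions, annotation release and strand setting are not given in the sources used here. Deposited signals have a floor of 20. They are not counts, so no count model was run. The study's design mentions triplicates, but each population has 1 column, and how replicates were combined is not given in the sources used here. The columns named for cells other than HCs were taken as the ENSC samples, and 0 columns of other samples were present. Each value was read as deposited, and log2 ratios were taken between libraries without a pseudocount or test. A gene was called at 3-fold or more in either direction. All 4 contrasts were computed over the whole table. By the naming rule, members that reached a signal of 100 in any library were given in full, the others by name where they passed 3-fold, and listed pathway genes could be named where they met both. Those named are a selection of the latter. *Fzd9*, *Lgr6*, *Tcf7*, *Ctnnb1*, *Gsk3b* and *Ccnd1* were named in addition, after their values were seen. The members and lists were chosen with earlier results of these data known.

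The tied range of a library ended at the low signal up to which the same genes' highest signal elsewhere increased in step (Spearman minimum of 0.8) and after which its median dropped 5-fold or more. Exonic length, GC content and positions came from GENCODE vM1 on mm9, found for 12799 genes and all 36 members. Trends of log2 ratio on length and GC were removed with lowess (fraction 0.3, 2 robust iterations, statsmodels 0.14.6). The steps ran in Python 3.11.15 with numpy 2.4.6, pandas 2.3.3, scipy 1.17.1 and matplotlib 3.10.9, and were tested on simulated data. The alternatives were a floor of 50, a pseudocount of 20, a filter of 100 in 1 or more libraries, centring, the length and GC correction, tied signals set to the top of their range, and a threshold of 2-fold.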

Additional observations from a re-analysis of the deposited data

Results flagged for a closer look

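Wnt9a had HC to ENSC ratios of opposite direction in the organs, with a log2 ratio of -2.13 for cochlear cells and 1.503 for vestibular cells (2.51 after length and GC correction). Dact1, an intracellular regulator of the pathway, did the same with -2.62 and 1.66. They were flagged because each differed at least 2-fold in opposite directions. With 1 library per population the difference between organs was not tested. Of all genes, 217 (1.69%) met the same criterion.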

How the results depend on the processing

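No paired analysis was possible because each population had 1 library, and for the same reason no replicate could be left out. No ratio past 3-fold changed sign under any alternative. Of the other members' ratios, 14 changed sign with the length and GC correction (among them *Axin1* and *Fzd1*, from -0.90 to 0.10 and -0.33 to 0.61 between vestibular HCs and ENSCs) and 1 with tied signals set to their top. The count of members higher in cochlear HCs than ENSCs went from 0 to 1 at a 2-fold threshold (*Lgr6*). The count higher in vestibular HCs than ENSCs went from 1 to 0 with a floor of 50 or a pseudocount of 20, to 2 with the length and GC correction and to 3 at 2-fold. The count lower there went from 16 to 10 with a floor of 50. Between HC libraries, the count higher in the cochlea went from 3 to 1 with the pseudocount and to 5 at 2-fold, and the count lower from 3 to 1 with a floor of 50. Between ENSC libraries, the count lower in the cochlea went from 5 to 2 with a floor of 50, the pseudocount or the filter of 100, and to 8 at 2-fold. The count lower in both organs, whose alternatives were chosen after seeing the data, went from 7 to 4 with the pseudocount and to 15 at 2-fold. Under all alternatives, 10 of 14 cochlear calls, 7 of 17 vestibular calls, 2 of 6 calls between HCs and 10 of 15 between ENSCs were kept. Depth is unknown, so no counting error could be given.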
